A study of Mus musculus with 12 samples.

Results

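The transcripts of 36 genes of the unfolded protein response, the reaction of the endoplasmic reticulum (ER) to misfolded protein, were followed in brain tissue of mice with and without SNX14, an ER protein. They were picked by name out of the 55536 genes counted and comprise 15 ER chaperones and folding enzymes, 4 sensors and their transcription factors, 9 genes of the integrated stress response and 8 genes of ER-associated degradation. *Ddit3* is listed under a second identifier as well, a model of 105 exon bases that lies wholly inside the exons of the first, so the 36 genes fill 37 entries. RNA was sequenced from the cerebellum and the cortex of WT and *Snx14*-KO mice aged 1 month, with 3 libraries for each tissue and genotype and 12 in all. Each mouse number of a genotype names a cerebellum and a cortex. *Snx14*-KO mice are homozygous for a germline frameshift deletion in *Snx14* made with Cas9 in C57BL/6J embryos, so every cell carries it. Both tissues are mixtures of cell types, and a lower level in such bulk RNA cannot be told apart from fewer cells of a type.

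ER chaperones such as BiP, encoded by *Hspa5*, hold and fold newly made secretory and membrane proteins, and they also keep the sensors IRE1, PERK and ATF6 inactive. When misfolded protein accumulates, IRE1 splices the *Xbp1* mRNA, ATF6 is cut free in the Golgi, and PERK phosphorylates eIF2α, which slows translation but favors that of ATF4. XBP1 and ATF6 then raise chaperone and degradation genes, while ATF4 raises genes for amino acid supply, redox balance and, through CHOP, cell death. Neurons with a large secretory and membrane load, Purkinje cells among them, are known to be sensitive to disturbed ER folding.

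Gene counts summed to between 16672589 and 19887427 read pairs per library. Levels are given as CPM, counts relative to library size with TMM scaling in edgeR. *Snx14* was at 63.8, 63.8 and 66.4 CPM in WT cerebella and at 10.4, 10.9 and 11.2 in *Snx14*-KO cerebella. It was at 53.5, 55.1 and 59.9 CPM in WT cortices and at 8.47, 7.97 and 7.65 in *Snx14*-KO cortices, so the genotypes did not overlap. The granule cell gene *Gabra6* was at 482 CPM or more in every cerebellum and at 2.02 CPM or less in every cortex. *Tbr1*, a transcription factor of cortical neurons, was at 160 CPM or more in every cortex and at 1.21 CPM or less in every cerebellum.

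All 36 genes had counts in every library. Per kb of exon, the highest mean level in WT cerebella was that of *Calr*, at 115 ± 28.4 CPM per kb (SD, n = 3), and the lowest was that of *Trib3*, at 0.323 ± 0.103 (SD, n = 3). *Hspa5* was at 80.4 ± 21.4 CPM per kb in WT cerebella and 68.0 ± 16.2 in WT cortices (SD, n = 3). *Atf4* was at 50.4 ± 3.95 and 44.7 ± 4.26 CPM per kb, whereas *Atf3*, a factor induced by stress, was at 0.533 ± 0.279 and 0.30 ± 0.168 (SD, n = 3). *Calr*, *Hsp90b1*, *Canx* and *Hspa5* had the 4 highest levels per kb in WT cerebella, and *Atf3*, *Trib3* and *Chac1* were among the lowest.

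Promoter sequences are shown because they group the genes by the elements of the response without using their measured levels. RefSeq promoters on GRCm38.p6, from 250 bases before to 50 bases after the start of the gene, were found for 32 of the 36 genes. *Derl1*, *Hyou1*, *Atf6* and *Manf* had none, and *Derl2* had a pair of them, so 33 windows were searched on both strands. The ER stress response element (ERSE), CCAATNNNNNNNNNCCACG, which NF-Y and ATF6 or XBP1 bind together, was present in 8 of these 32 genes (25.0%) and in 0.119% of all 32851 promoters. All but 1 of the 8 are chaperones or folding enzymes, and the other is *Syvn1*, the ubiquitin ligase of ER-associated degradation. The *Hspa5* promoter is shown over its 250 bases upstream of the start (chr2:34771840-34772089, plus strand), with the ERSE in capitals. For the other genes, only the element in capitals and 10 bases on either side are shown, in the direction of the gene. They begin with *Hsp90b1* (chr10:86705628-86705666, minus strand), *Calr* (chr8:84847065-84847103, minus strand) and *Canx* (chr11:50325790-50325828, minus strand). The last 4 are *Pdia6* (chr12:17266481-17266519, plus strand), *Dnajc3* (chr14:118937817-118937855, plus strand), *Creld2* (chr15:88819510-88819548, plus strand) and *Syvn1* (chr19:6046522-6046560, plus strand). In *Calr* and *Creld2* the element reads on the opposite strand, as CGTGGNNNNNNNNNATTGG. *Hsp90b1* has a second ERSE, also on the opposite strand and nearer to the start (chr10:86705523-86705561, with 10 bases on either side), which is not printed.
Hspa5: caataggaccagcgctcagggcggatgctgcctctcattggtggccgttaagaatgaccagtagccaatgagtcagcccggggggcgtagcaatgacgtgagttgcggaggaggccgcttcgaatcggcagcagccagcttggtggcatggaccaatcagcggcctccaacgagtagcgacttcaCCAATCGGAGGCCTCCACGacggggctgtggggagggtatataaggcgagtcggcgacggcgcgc
Hsp90b1: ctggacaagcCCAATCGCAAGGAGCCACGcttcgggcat
Calr: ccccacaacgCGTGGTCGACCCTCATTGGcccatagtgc
Canx: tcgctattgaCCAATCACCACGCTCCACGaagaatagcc
Pdia6: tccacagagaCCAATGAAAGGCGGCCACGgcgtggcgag
Dnajc3: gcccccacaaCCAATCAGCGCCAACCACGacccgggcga
Creld2: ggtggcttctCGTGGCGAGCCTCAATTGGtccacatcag
Syvn1: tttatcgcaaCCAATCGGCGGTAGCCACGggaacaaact

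The related element ERSE-II, ATTGGNCCACG, was found in *Herpud1* and *Dnajb11* and in 0.0365% of all promoters. The C/EBP-ATF response element (CARE), TGATGNAA, through which ATF4 acts, was found in 5 of the 32 genes (15.6%) against 3.97% of all promoters. Of these 5, *Atf3*, *Chac1*, *Trib3* and *Asns* belong to the integrated stress response, and *Herpud1*, a scaffold of the degradation complex, carries both ERSE-II and CARE. The XBP1 element TGACGTGG was found in none of the 32 and in 0.676% of all promoters. The short CARE is shown for *Asns* (chr6:7693215-7693242, minus strand), *Atf3* (chr1:191183426-191183453, minus strand), *Chac1* (chr2:119351039-119351066, plus strand) and *Herpud1* (chr8:94386307-94386334, plus strand), with the element in capitals. The element overlaps neither ERSE-II in *Herpud1* nor any ERSE. In all but *Asns* it reads on the opposite strand, as TTNCATCA. A match describes these letters only, and no match says nothing about whether a factor acts on the gene.
Asns: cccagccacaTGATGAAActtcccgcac
Atf3: cttctcgcacTTGCATCAccaagtccgc
Chac1: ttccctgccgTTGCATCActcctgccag
Herpud1: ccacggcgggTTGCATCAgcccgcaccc

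To ask whether loss of SNX14 was accompanied by an ER stress response before Purkinje cells are lost, which the study places at a later age, *Snx14*-KO and WT tissue of each region were compared. A gene was called when edgeR's quasi-likelihood test gave a Benjamini-Hochberg adjusted p under 0.05 and the log2 fold change exceeded 0.50 in either direction. In cerebellum, 35 of the 36 genes had enough counts for the test, and 0 were called, where 0.00549% of all 18201 genes tested were. At an unadjusted p under 0.05, 3 of the 35 were higher in *Snx14*-KO cerebella and 0 were lower, against 5.78% of all genes higher and 2.37% lower. Their median log2 fold change was -0.077, with 12 genes higher and 23 lower, and over all genes tested it was -0.00062, with 49.9% higher. Without the cerebellum of WT mouse 3, 17 of the 35 genes were higher and 18 lower, at a median of -0.00062. DESeq2 also called 0 of the 35 in cerebellum, where it called 0.901% of all genes, and at an unadjusted p under 0.05 it had 2 higher and 1 lower. In cortex, 0 of 35 were called by edgeR, where 0.00548% of all 18255 genes were, and 0 by DESeq2, where 0.0493% were. There, 1 of the 35 was higher and 0 lower at an unadjusted p under 0.05, against 2.24% and 2.26% of all genes, and DESeq2 gave the same counts. The median in cortex was -0.013, again with 12 genes higher and 23 lower, beside 8.2e-05 over all genes, of which 50.0% were higher. Without the cortex of WT mouse 3 the direction turned, to 25 genes higher and 10 lower at a median of 0.059. Markers of other cells also differed in level between the cerebella of the genotypes. The 15 meningeal markers summed to 608 to 634 CPM in *Snx14*-KO cerebella and 226 to 502 CPM in WT cerebella, with 14 of 15 at a positive log2 fold change, 0 called by edgeR and 11 called by DESeq2. Their part in the values of the 36 genes was not tested.

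**Figure D1:**
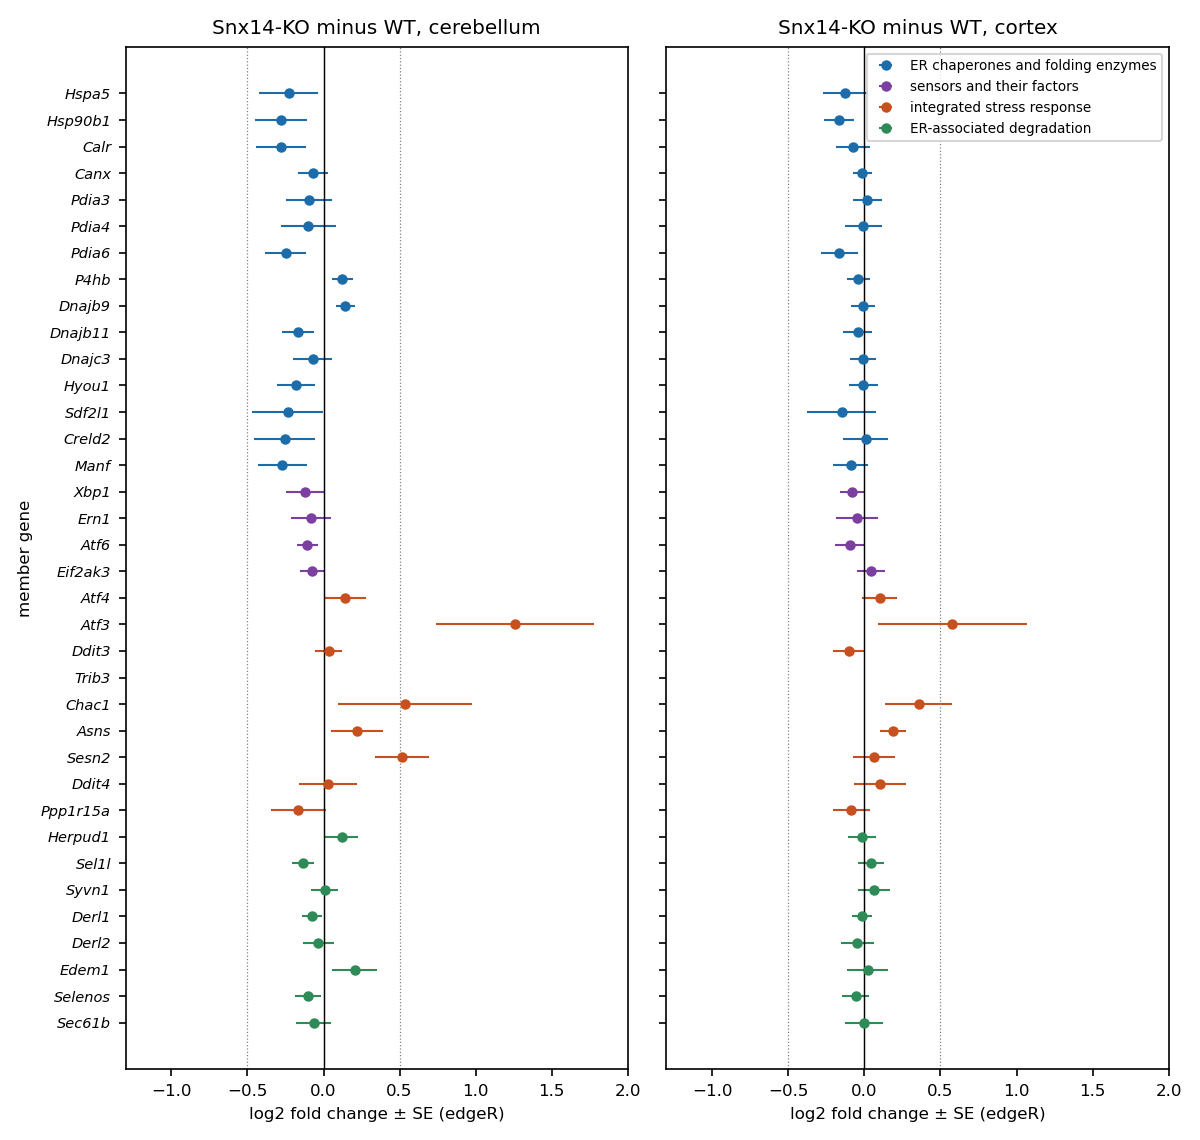
Log2 fold change of each gene between *Snx14*-KO and WT tissue (points) with its standard error (bars), for cerebellum on the left and cortex on the right, with genes in rows and colored by role. Dotted lines mark the fold threshold of 0.50, and *Trib3* was not tested. In cerebellum 13 of the 15 chaperones and folding enzymes lie left of 0 and 7 of 8 stress response genes right of it, and none of these differences was called.

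The chaperones and folding enzymes lay lower in *Snx14*-KO than in WT cerebella in 13 of 15 cases (median log2 fold change -0.18), in a range of -0.28 to 0.14, and none was called. *Hspa5* was at 276, 300.1 and 444 CPM in WT cerebella (mice 1, 2 and 3) and at 245, 354 and 267 CPM in *Snx14*-KO cerebella. Only the third WT mouse stood above all *Snx14*-KO mice, and the remaining WT values lay within the *Snx14*-KO range. The log2 fold change of *Hspa5* was -0.23 (standard error 0.194, edgeR quasi-likelihood adjusted p = 0.878). *Hsp90b1*, the ER form of HSP90, was at 322, 351 and 524 CPM in WT and 309, 347 and 327 in *Snx14*-KO cerebella. Of its exon bases, 15.7% are shared with neighboring gene models, and pairs there were counted for each. *Calr*, the lectin chaperone calreticulin, was at 269, 298 and 423 CPM against 244, 298 and 268. For both, WT mouse 3 stood above the other 5 cerebella, and without its library the log2 fold changes were -0.026 for *Hsp90b1* and -0.056 for *Calr*.

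The log2 fold changes in cerebellum were -0.28 for *Hsp90b1*, -0.28 for *Calr*, -0.27 for *Manf*, a secreted ER factor, and -0.26 for *Creld2*, a disulfide isomerase-like protein. They were -0.25 for *Pdia6*, -0.10 for *Pdia4* and -0.094 for *Pdia3*, all protein disulfide isomerases, and -0.23 for *Sdf2l1*, a partner of ER J-domain proteins. They were -0.18 for *Hyou1*, the nucleotide exchange factor of BiP, -0.17 for *Dnajb11* and -0.072 for *Dnajc3*, J-domain co-chaperones, and -0.068 for *Canx*, calnexin. The standard errors of these 12 ran from 0.0971 to 0.233, so none lay as far as 2 standard errors from 0.

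The exceptions were *Dnajb9* and *P4hb*, which had the smallest spread, relative to the mean, of the 15 in WT cerebella. *Dnajb9*, the co-chaperone ERdj4 that represses IRE1, was at 47.6, 45.4 and 46.2 CPM in WT and 51.1, 51.7 and 49.8 in *Snx14*-KO cerebella. The 3 *Snx14*-KO values lay above the 3 WT values, and the log2 fold change was 0.14 (standard error 0.0636, edgeR quasi-likelihood unadjusted p = 0.0487, adjusted p = 0.608). *P4hb*, protein disulfide isomerase itself, was at 119.6, 116 and 120.4 CPM against 122, 131 and 133, also without overlap (log2 fold change 0.12, same test, adjusted p = 0.734). Libraries of *Snx14*-KO and WT cerebellum did not overlap for 12.4% of all genes tested (6.36% higher and 6.01% lower in *Snx14*-KO), and for 6 of the 35 here. Besides *Dnajb9* and *P4hb*, these were *Sesn2*, which was higher, and *Atf6*, *Sel1l* and *Derl1*, which were lower.

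In cortex the same 15 genes were at a median log2 fold change of -0.040, with 13 lower and a range of -0.17 to 0.020. *Hspa5* was at 226, 275 and 361 CPM in WT cortices and 229.9, 305 and 253 in *Snx14*-KO cortices, with the third WT mouse again highest and the other values mixed. Its log2 fold change was -0.12 (standard error 0.146, edgeR quasi-likelihood adjusted p = 0.996). The largest difference of the group was -0.17 for *Hsp90b1*, followed by -0.16 for *Pdia6* and -0.15 for *Sdf2l1*, and *Manf* was at -0.089. The log2 fold changes were -0.072 for *Calr*, -0.044 for *Dnajb11*, -0.039 for *P4hb* and -0.013 for *Canx*. For *Dnajb9*, *Dnajc3*, *Pdia4* and *Hyou1* they were -0.0096, -0.0091, -0.0081 and -0.0058, and for *Pdia3* and *Creld2* 0.020 and 0.0085. In no gene of the group did the *Snx14*-KO and WT cortices separate.

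**Figure D2:**
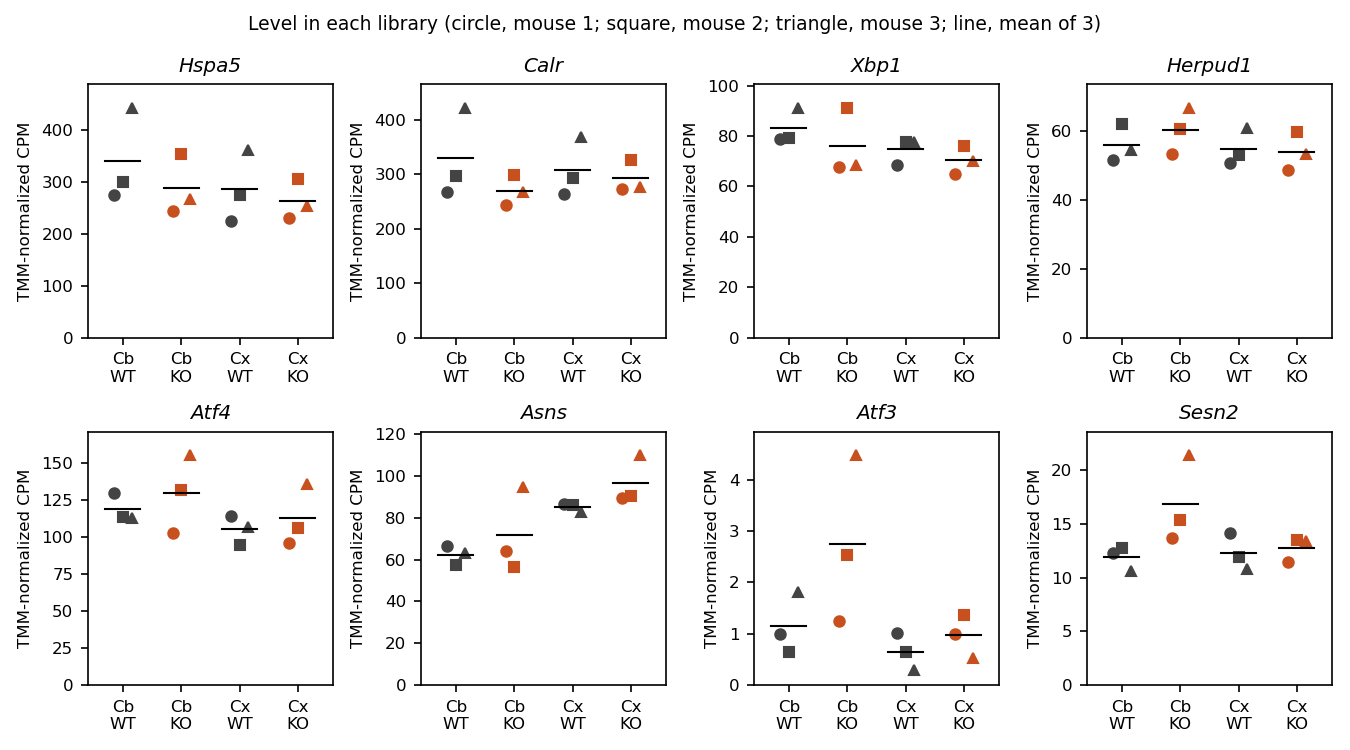
TMM-normalized CPM of 8 genes in each of the 12 libraries, by tissue (Cb, cerebellum, and Cx, cortex) and genotype, with the mean of 3 as a line and mouse number as the shape. The triangle of WT mouse 3 is the highest for *Hspa5* and *Calr* in both tissues, at 444 and 361 CPM for *Hspa5*, and that of *Snx14*-KO mouse 3 is the highest for *Atf4* and *Asns* in both tissues.

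Within the genotypes, single mice stood apart. WT mouse 3 had the highest level of its tissue for 13 of the 15 chaperones and folding enzymes in cerebellum, for 11 of 15 in cortex, and in both tissues for 10 of 15. Over all 19380 genes tested in the 4 groups together, this mouse was highest in 16.0% of genes in cerebellum, 16.6% in cortex and 3.24% in both. On a log2(CPM + 1) scale centered on the 6 libraries of a tissue, the 15 genes averaged 0.36 higher than the tissue mean in the cerebellum of WT mouse 3 and 0.24 higher in its cortex. No other library lay more than 0.074 above its tissue mean. Of the 8 genes with an ERSE, all but 1 of which are among these 15, WT mouse 3 was highest for 7 in cerebellum, 5 in cortex and 5 in both. Without its library, the chaperone median between *Snx14*-KO and WT tissue went from -0.18 to -0.00062 in cerebellum, with 7 genes higher and 8 lower, and from -0.040 to 0.063 in cortex, with 13 higher and 2 lower. These orderings were noticed in the data and are given as a description.

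Across the 6 mice, the Pearson correlation between a gene's log2(CPM + 0.5) in cerebellum and in cortex had a median of 0.62 over the 36 genes, 0.78 over the chaperones and folding enzymes and 0.11 over all genes. For *Hspa5* it was 0.96 (exact permutation p = 0.00556, 0.80 after adjustment over all genes, Spearman's rho 0.83 with exact permutation p = 0.0583). Leaving out the 2 mice farthest from the cerebellar median, r was 0.70. *Ddit4*, an mTOR inhibitor induced by stress and by glucocorticoids, had the highest value of the 36, with r = 0.98 and rho = 1.00 (exact permutation p = 0.00139 and 0.00278, 0.80 and 0.84 after adjustment) and 0.99 without 2 mice. For *Hsp90b1*, r went from 0.91 to -0.13 without the 2 farthest mice, so that relation rests on them. With the 2 farthest mice of each gene left out, r also fell below 0 for *Dnajb11* (-0.087), *Creld2* (-0.58), *Manf* (-0.27) and *P4hb* (-0.60). *Dnajb9* stayed below 0, *Dnajc3* and *Sdf2l1* were at 0.19, and *Calr*, *Canx*, *Pdia3*, *Pdia4*, *Pdia6* and *Hyou1* at 0.54 to 0.85. Over the 36 genes, r then ran from -0.88 for *Atf6* to 0.99 for *Ddit4*. The medians above use all 6 mice. *Hspa5*, *Ddit4* and *Hsp90b1* were chosen after their values were seen.

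**Figure D3:**
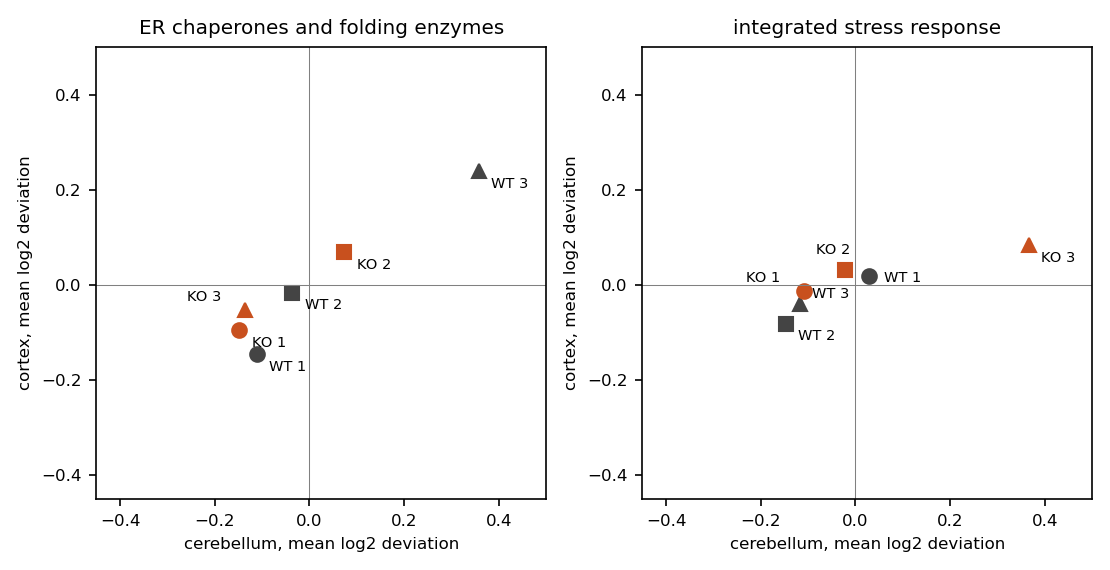
Mean log2(CPM + 1) deviation from the tissue mean for each of the 6 mice, cerebellum against cortex, over the 15 chaperones and folding enzymes (left) and the 9 stress response genes (right), with WT in gray and *Snx14*-KO in orange. WT mouse 3 stands at 0.36 and 0.24 for chaperones, and *Snx14*-KO mouse 3 at 0.37 and 0.084 for stress response genes.

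The cerebellum of WT mouse 3 also held the most choroid plexus RNA, from a secretory epithelium. The 10 choroid plexus markers summed to 7472 CPM there, with none of them at 0, against 83.9 and 2794 CPM in the other WT cerebella and 987 to 3246 in *Snx14*-KO cerebella. *Ttr*, the main choroid plexus product, was at 53.2, 2524 and 6796 CPM in WT and 1872, 3008 and 881 in *Snx14*-KO cerebella, and all 10 markers had a log2 fold change below 0, with none called. In cortex the list summed to 20.9 CPM in WT mouse 3 and to 144 CPM in WT mouse 1. The 15 cytosolic heat shock and chaperonin genes had a median log2 fold change of -0.035 in cerebellum and -0.00042 in cortex, with 7 higher and 8 lower in each. In WT mouse 3 they averaged 0.065 above the tissue mean in cerebellum and 0.13 in cortex. The 14 glucocorticoid-induced genes summed to 884 CPM in the cerebellum of WT mouse 3 and 619 CPM in its cortex, the lowest of each tissue. The 10 genes with most counts took 3.76% and 4.02% of its gene counts there, the highest of each tissue. The part of choroid plexus RNA in the cerebellar values was not tested, nor was that of these other features.

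**Figure D4:**
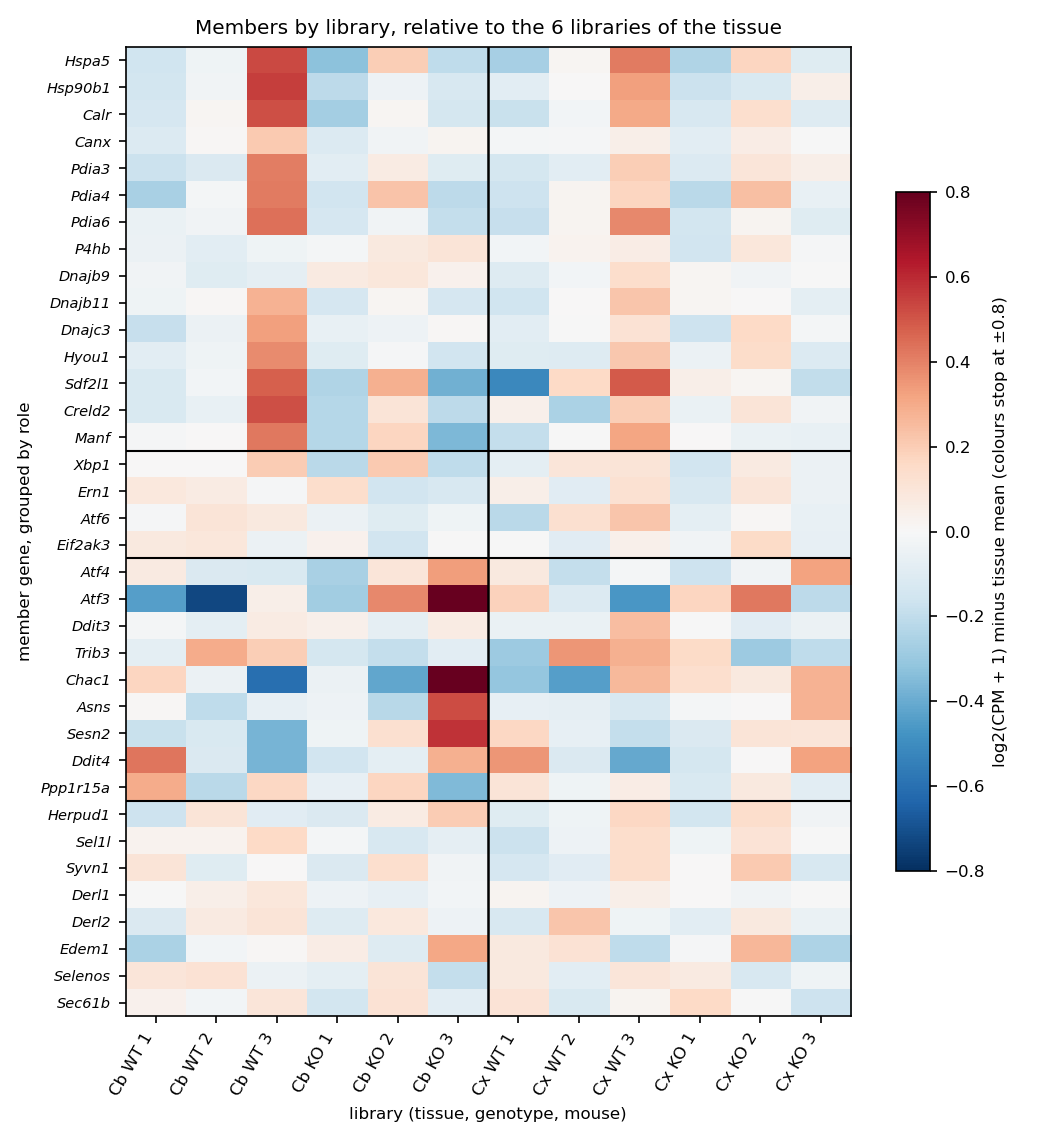
Log2(CPM + 1) of each of the 36 genes (rows, grouped by role) in each of the 12 libraries (columns) minus the mean of the 6 libraries of the same tissue. The chaperone rows of WT mouse 3 lie above the tissue mean (red) in both tissues, except *Dnajb9* and *P4hb* in cerebellum, and several stress response rows are red in *Snx14*-KO mouse 3.

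The sensors and their factors moved little. In cerebellum all 4 lay lower in *Snx14*-KO mice, at a median log2 fold change of -0.094 (range -0.12 to -0.073), and none had an unadjusted p under 0.05. *Xbp1*, whose spliced mRNA encodes the main factor of the IRE1 branch, was at 79.0, 79.1 and 91.0 CPM in WT and 67.8, 91.3 and 68.6 in *Snx14*-KO cerebella. In cortex it was at 68.6, 77.7 and 77.7 CPM in WT and 65.1, 76.2 and 70.1 in *Snx14*-KO mice. The groups overlapped in both tissues, and the log2 fold changes were -0.12 and -0.080 (edgeR quasi-likelihood adjusted p = 0.911 and 0.996). Counts cover all exons of a gene, so spliced and unspliced *Xbp1* were counted together. Cleavage of ATF6 and translation of ATF4 likewise leave no direct trace in them.

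*Atf6* was at 61.9, 67.1 and 65.8 CPM in WT and 60.4, 58.3 and 60.9 in *Snx14*-KO cerebella, without overlap, at a log2 fold change of -0.11 (edgeR quasi-likelihood adjusted p = 0.790). *Ern1*, which encodes IRE1, and *Eif2ak3*, which encodes PERK, had log2 fold changes of -0.082 and -0.073 in cerebellum. In cortex the values were -0.094 for *Atf6*, -0.049 for *Ern1* and 0.043 for *Eif2ak3*.

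The integrated stress response was the only one of the 4 roles whose median lay above 0, at 0.18 in cerebellum, where 7 of 8 genes tested were higher, and 0.10 in cortex, where 6 of 8 were. Those with an unadjusted p under 0.05 were *Atf3* and *Sesn2* in cerebellum and *Asns* in cortex, and none was called. *Sesn2*, an ATF4 and p53 target that restrains mTORC1, was at 12.3, 12.8 and 10.6 CPM in WT and 13.7, 15.4 and 21.4 in *Snx14*-KO cerebella. The groups did not overlap, with a log2 fold change of 0.52 (standard error 0.178, edgeR quasi-likelihood unadjusted p = 0.0175, adjusted p = 0.455). Without the cerebellum of *Snx14*-KO mouse 3 it was 0.29. In cortex *Sesn2* was at 14.1, 11.9 and 10.8 CPM against 11.5, 13.5 and 13.4, which overlapped, and its log2 fold change was 0.061.

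*Atf3* was at 1.00, 0.637 and 1.81 CPM in WT and 1.24, 2.54 and 4.49 in *Snx14*-KO cerebella. These were 11 to 34 counts per WT library, the groups overlapped, and the log2 fold change was 1.26 (standard error 0.519, edgeR quasi-likelihood unadjusted p = 0.0382, adjusted p = 0.566). Without the cerebellum of *Snx14*-KO mouse 3 it was 0.70. In cortex *Atf3* was at 1.01, 0.645 and 0.285 CPM in WT and 0.996, 1.37 and 0.534 in *Snx14*-KO mice, with a log2 fold change of 0.58 (adjusted p = 0.996). *Asns*, asparagine synthetase, was at 66.5, 57.3 and 63.0 CPM in WT and 64.0, 56.5 and 95.0 in *Snx14*-KO cerebella, so a single *Snx14*-KO mouse stood apart. In cortex it was at 86.6, 86.1 and 82.9 CPM in WT and 89.6, 90.7 and 110.3 in *Snx14*-KO mice. There the groups did not overlap, as for 9.32% of all genes in cortex (4.29% higher and 5.02% lower) and for *Asns* alone among the 35, and the log2 fold change was 0.19 (standard error 0.0842, edgeR quasi-likelihood unadjusted p = 0.0449, adjusted p = 0.996). Without the cortex of *Snx14*-KO mouse 3, that of *Asns* was 0.085.

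*Atf4*, the central factor of the response, was at 129.5, 114 and 113 CPM in WT and 103, 132 and 156 in *Snx14*-KO cerebella. In cortex it was at 115, 94.6 and 107 CPM in WT and 96.2, 106 and 136 in *Snx14*-KO mice. *Snx14*-KO mouse 3 was highest in both tissues, the other values were mixed, and the log2 fold changes were 0.14 and 0.10 (edgeR quasi-likelihood adjusted p = 0.904 and 0.996). *Ddit3*, which encodes the death-promoting factor CHOP, was at 26.1, 24.9 and 27.7 CPM in WT and 27.2, 25.1 and 27.7 in *Snx14*-KO cerebella. In cortex it was at 24.7, 24.7 and 30.7 CPM against 25.6, 24.0 and 24.9. Its values overlapped in both tissues, with log2 fold changes of 0.033 and -0.10, and 10.9% of its exon bases are shared with other gene models.

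*Chac1*, which degrades glutathione and is a target of ATF4, had log2 fold changes of 0.54 in cerebellum and 0.36 in cortex, with standard errors of 0.441 and 0.222. *Ddit4* was at 0.029 and 0.10, and *Ppp1r15a*, the eIF2α phosphatase subunit GADD34, at -0.17 and -0.085. *Trib3*, a pseudokinase induced by CHOP, had too few counts for the test, at 0.445, 0.868 and 0.745 CPM in WT and 0.383, 0.331 and 0.433 in *Snx14*-KO cerebella, without overlap. Of the genes with a CARE that were tested, 4 of 4 were higher in cerebellum, with a median of 0.38, and 3 of 4 in cortex, with a median of 0.27, and of those with an ERSE 1 of 8 and 2 of 8 were higher. All 4 of the tested genes with a CARE were highest in the cerebellum of *Snx14*-KO mouse 3, and without it their log2 fold changes were 0.70 for *Atf3*, -0.12 for *Chac1*, -0.049 for *Asns* and 0.025 for *Herpud1*. All tested genes with a CARE except *Herpud1* also count among the stress response genes above, so this is not a separate grouping. None of the genes with a CARE or an ERSE was called between the genotypes.

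*Snx14*-KO mouse 3 had the highest cerebellar level of 5 of the 9 stress response genes, the highest cortical level of 3, and the highest in both tissues for 3, namely *Atf4*, *Chac1* and *Asns*. Of all genes, 18.2% were highest in this mouse in cerebellum, 14.7% in cortex and 3.63% in both. WT mouse 1 had the highest cerebellar level of 2 of the 9, the highest cortical level of 3, and the highest in both tissues for 2. Its shares of all genes were 22.6%, 14.4% and 3.1%. In *Snx14*-KO mouse 3 the 9 genes averaged 0.37 above the tissue mean in cerebellum and 0.084 in cortex. Over the 8 genes tested, the median without *Snx14*-KO mouse 3 went from 0.18 to -0.033 in cerebellum, with 2 higher and 6 lower, and from 0.10 to -0.0087 in cortex, with 4 higher and 4 lower. *Trib3* passed the count filter in the fits without this mouse and is not in these medians.

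Other lists moved with this mouse in cerebellum. The 14 microglial markers summed to 780 CPM in its cerebellum, against 305 and 336 in the other *Snx14*-KO cerebella and 264 to 331 in WT, with 14 of 14 higher by fold change and *Aif1* at 6.98 CPM against 3.03 or less in the other cerebella. *Gfap*, the astrocyte filament gene, was at 912 CPM there, against 276 to 442 CPM in the other 5 cerebella. The 12 astrocyte markers, with 11 of 12 higher by fold change between the genotypes, did not set this mouse alone apart. They summed to 9992, 10474 and 11063 CPM in *Snx14*-KO cerebella (mice 1, 2 and 3) and to 8845 to 9682 CPM in WT cerebella. The 10 Purkinje cell markers summed to 9700 CPM there, the lowest of the 6 cerebella, against 12170 to 13896 CPM in the others. The 14 glucocorticoid-induced genes summed to 1709 CPM in that cerebellum against 884 to 1391 in the others, and to 964 CPM in its cortex against 619 to 861. In its cortex the microglial list was at 644 CPM, within the 596 to 725 CPM of the others. The part of these lists in the stress response values was not tested.

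Of the 8 genes of ER-associated degradation, 5 lay lower in *Snx14*-KO cerebella, with a median of -0.050 and a range of -0.13 to 0.20, and none had an unadjusted p under 0.05. *Herpud1* was at 51.4, 62.0 and 54.3 CPM in WT and 53.2, 60.6 and 66.7 in *Snx14*-KO cerebella, and at 50.6, 52.8 and 60.7 against 48.7, 59.8 and 53.1 in cortex. The groups overlapped in both, with log2 fold changes of 0.12 and -0.017 (edgeR quasi-likelihood adjusted p = 0.889 and 0.996). The ligase pair *Sel1l* and *Syvn1* was at -0.13 and 0.0068 in cerebellum. The channel proteins *Derl1* and *Derl2* were at -0.077 and -0.035, the mannosidase-like *Edem1* at 0.20, the selenoprotein *Selenos* at -0.099 and the translocon subunit *Sec61b* at -0.065. In cortex the same values ran from -0.056 for *Selenos* to 0.066 for *Syvn1*, with 0.046 for *Sel1l*, 0.023 for *Edem1*, -0.045 for *Derl2*, -0.016 for *Derl1* and -0.0024 for *Sec61b*.

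To see whether the 36 genes answered to the loss of SNX14 differently in the region that later degenerates, the *Snx14*-KO effect in cerebellum was compared with that in cortex in one fit over the 12 libraries. That fit had no term for the mouse, so the cerebellum and the cortex of a mouse entered it as independent libraries. All 36 passed the count filter there, and 0 were called, as for 0.00% of all 19380 genes, while DESeq2 also called 0 of the 36 and 0.181% of all genes. At an unadjusted p under 0.05 there were 0 of the 36 by either tool, where 5.68% of all genes passed by edgeR. With the mouse as a block, edgeR called 0 of the 36 as well, and 0 of all 19380 genes. The median difference was -0.074, with 11 above and 25 below 0, beside -0.0043 over all genes, of which 49.1% were above 0. The differences in log2 fold change were 0.44 for *Sesn2* (standard error 0.232, unadjusted p = 0.0799), 0.66 for *Atf3* (standard error 0.792) and -0.12 for *Hspa5* (standard error 0.279), with edgeR quasi-likelihood adjusted p = 0.958, 1.00 and 1.00. For *Dnajb9*, *Herpud1* and *Ddit3* they were 0.14, 0.12 and 0.12, and for *Xbp1*, *Atf4* and *Asns* -0.054, 0.025 and 0.013. With 1 library left out, the difference ran from 0.22 to 0.57 for *Sesn2* and from 0.12 to 1.16 for *Atf3*. It ran from 0.069 to 0.21 for *Dnajb9*, 0.039 to 0.20 for *Herpud1* and 0.0065 to 0.18 for *Ddit3*. Without the cerebellum of WT mouse 3, the median of the 36 was 0.023.

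Cerebellum and cortex were then compared within each genotype, again without a term for the mouse in the main fits. In WT mice 6 of the 36 genes were called between cerebellum and cortex, 4 higher and 2 lower in cerebellum, whereas 40.4% of all 18543 genes were called (19.0% higher and 21.4% lower). In *Snx14*-KO mice 4 of 35 were called, 3 higher and 1 lower, whereas 37.9% of all 18542 genes were (18.2% higher and 19.6% lower). By DESeq2 the counts were 6 of 36, 3 in each direction, and 4 of 35, where 38.9% and 36.1% of all genes were called. In WT mice DESeq2 called 1 integrated stress response gene lower in cerebellum, where edgeR called 0 lower in that role. The median log2 fold change of the 36 was 0.16 in WT and that of the 35 was 0.11 in *Snx14*-KO mice, beside 0.023 and 0.020 over all genes. With 1 library left out, the medians ran from 0.031 to 0.23 in WT and from 0.0046 to 0.16 in *Snx14*-KO mice. Libraries did not overlap between tissues for 10 of 36 genes in WT and 11 of 35 in *Snx14*-KO mice, against 64.2% and 60.6% of all genes.

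*Selenos*, part of the complex that draws misfolded proteins out of the ER, differed most in WT mice. It was at 100.02, 101 and 90.3 CPM in WT cerebella and 41.3, 36.8 and 42.0 in WT cortices, without overlap. The log2 fold change was 1.29 (standard error 0.0762, edgeR quasi-likelihood adjusted p = 1.68e-07). In *Snx14*-KO mice it was at 88.3, 100.2 and 81.6 CPM against 41.3, 35.8 and 38.2, a log2 fold change of 1.23 (same test, adjusted p = 3.19e-06). *Derl1*, which works with it, was at 97.7, 101 and 104 CPM in WT cerebella and 66.7, 63.8 and 68.0 in WT cortices, with log2 fold changes of 0.62 in WT and 0.55 in *Snx14*-KO mice. Both genes were called in both genotypes, where 33.3% of the 18181 genes tested in both genotypes were called in the same direction in each.

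*Atf6* was lower in cerebellum, at 61.9, 67.1 and 65.8 CPM in WT cerebella and 90.6, 115 and 122.9 in WT cortices, with log2 fold changes of -0.75 in WT (edgeR quasi-likelihood adjusted p = 1.27e-04) and -0.77 in *Snx14*-KO mice. *Edem1* was at 14.0, 16.6 and 17.0 CPM in WT cerebella and 26.5, 27.2 and 21.6 in WT cortices, a log2 fold change of -0.65 (same test, adjusted p = 9.80e-04). In *Snx14*-KO mice its log2 fold change was -0.48, short of the fold threshold. *Atf6* was called lower in both genotypes, and *Edem1* in WT mice.

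*Dnajc3*, the co-chaperone P58IPK that restrains PERK, was at 93.8, 103 and 134 CPM in WT cerebella and 72.4, 76.4 and 83.3 in WT cortices. Its log2 fold change was 0.52 in WT mice, where it was called, and 0.45 in *Snx14*-KO mice, below the fold threshold at a quasi-likelihood (edgeR) adjusted p = 0.00188. Without the cerebellum of WT mouse 3 or the cortex of WT mouse 1 the first was 0.35 or 0.47, below the threshold. *Ddit4* was at 73.7, 50.3 and 42.0 CPM in WT cerebella and 49.3, 35.4 and 28.7 in WT cortices, which overlapped, and its log2 fold change of 0.56 had an adjusted p of 0.0493 that did not hold with DESeq2 (0.159). The call was also lost without the cerebellum of WT mouse 1 (log2 fold change 0.30, adjusted p = 0.204) or 2 (0.62, adjusted p = 0.0606). The same held without the cortex of WT mouse 2 (0.50, adjusted p = 0.138) or 3 (0.38, adjusted p = 0.188). *Atf3* was called in *Snx14*-KO mice, at a log2 fold change of 1.49 (edgeR quasi-likelihood adjusted p = 0.0289), and not in WT mice, at 0.83 (adjusted p = 0.189). With the mouse as a block that pairs its cerebellum and cortex, the first became 1.39 with an adjusted p of 0.0575, and without the cerebellum of *Snx14*-KO mouse 3 it was 0.95 with 0.127. The call was also lost without the cortex of *Snx14*-KO mouse 1 (log2 fold change 1.52, adjusted p = 0.0707) or 3 (1.22, adjusted p = 0.106). The difference between the genotypes is the 0.66 given above, which did not pass the test.

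**Figure D5:**
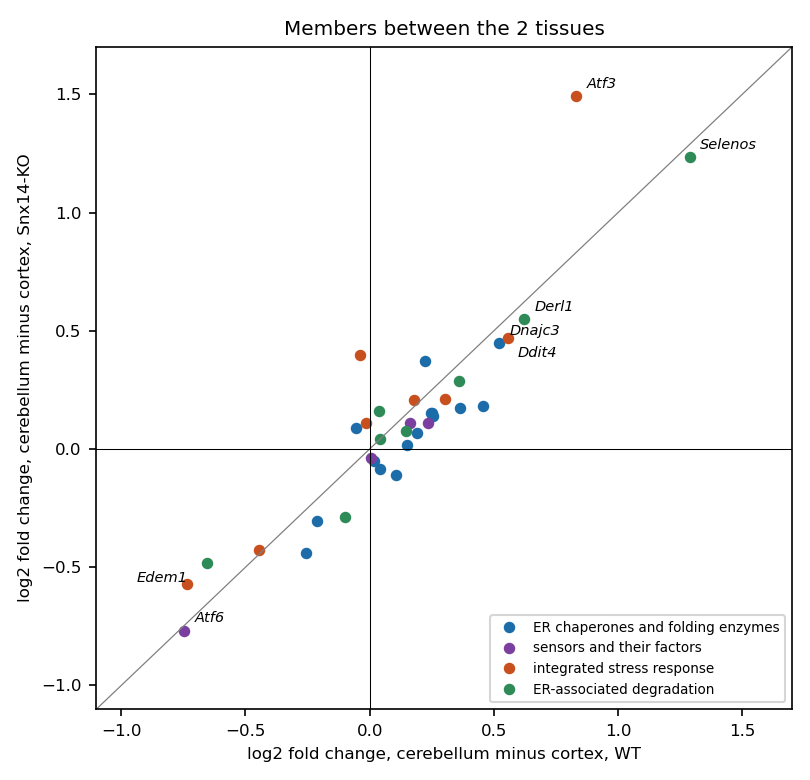
Log2 fold change between cerebellum and cortex in WT mice (horizontal axis) and in *Snx14*-KO mice (vertical axis) for the 35 genes tested in both, colored by role, with names for those called in either genotype and a line of equal values. *Selenos* is at 1.29 and 1.23, *Atf6* at -0.75 and -0.77, and *Atf3* lies above the line at 0.83 and 1.49.

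The wider pathway was examined with 116 further genes in 5 lists. By edgeR 0 of the 115 tested in cerebellum and 0 of the 114 in cortex were called. DESeq2 called 1 of the 115, *Slc7a11*, and 0 of the 114, where it called 0.901% and 0.0493% of all genes. At an unadjusted p under 0.05, the *Snx14*-KO level was higher for 7 and lower for 1 in cerebellum, and higher for 9 and lower for 1 in cortex, where 5.78% of all genes were higher and 2.37% lower in cerebellum, and 2.24% and 2.26% in cortex. In the 24 further folding genes, the 24 translocation genes, the 18 further degradation genes and the regulators (19 of 20 tested), the median log2 fold changes spanned -0.027 to -0.0030 in cerebellum and -0.0098 to 0.036 in cortex.

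The list of 30 further ATF4 and integrated stress response targets stood at a median of 0.14 in cerebellum, with 25 of 30 higher, and 0.098 in cortex, with 24 of 29 higher. Of these, 3 were higher at an unadjusted p under 0.05 in cerebellum and 8 in cortex, with 0 lower, where 5.78% and 2.24% of all genes were higher. In cerebellum 2 of 30 had all *Snx14*-KO above all WT libraries and 0 had all below, where 6.36% and 6.01% of all genes did. In cortex 8 of 29 had all above and 1 had all below, where 4.29% and 5.02% of all genes did. Without *Snx14*-KO mouse 3, the median was 0.011 in cerebellum, with 16 of 30 higher, and 0.048 in cortex, with 17 of 29 higher. *Slc7a11*, the cystine transporter xCT, was at 22.7, 25.5 and 24.3 CPM in WT and 51.1, 30.8 and 44.2 in *Snx14*-KO cerebella, without overlap. Its log2 fold change was 0.81 (standard error 0.162, edgeR quasi-likelihood unadjusted p = 7.2e-04, adjusted p = 0.178), and by DESeq2 it was 0.80 with an adjusted p of 5.05e-04. By edgeR it was called with no count filter (adjusted p = 2.61e-04), in the fit over the 12 libraries (0.0329) and without the cerebellum of *Snx14*-KO mouse 2 (0.00192). Those runs called 329 of 31465, 43 of 19380 and 244 of 18649 genes higher in *Snx14*-KO cerebella, where the main fit called 0 of 18201. No other edgeR run called *Slc7a11*. In cortex *Slc7a11* was at 59.2, 55.5 and 56.0 CPM in WT and 63.1, 72.4 and 65.4 in *Snx14*-KO mice, again without overlap, with a log2 fold change of 0.24 (edgeR quasi-likelihood adjusted p = 0.996).

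*Slc7a3*, a cationic amino acid transporter, was at 0.889, 1.27 and 0.479 CPM in WT and 2.77, 1.103 and 10.6 in *Snx14*-KO cerebella, with overlap and a log2 fold change of 2.47 (edgeR quasi-likelihood adjusted p = 0.392). It was called by edgeR only with no count filter (adjusted p = 0.00376) and without the cerebellum of *Snx14*-KO mouse 2 (0.0490), which called 329 and 244 genes higher. Without the cerebellum of *Snx14*-KO mouse 3 its log2 fold change was 1.15. In cortex, *Slc7a5*, the leucine transporter LAT1, was at 50.9, 48.9 and 42.8 CPM in WT and 53.9, 60.9 and 59.4 in *Snx14*-KO mice, a log2 fold change of 0.29 (same test, adjusted p = 0.990). *Stc2*, a secreted glycoprotein induced by ER stress, was at 1.27, 1.24 and 1.37 CPM against 1.99, 2.31 and 2.97 there, a log2 fold change of 0.91 (adjusted p = 0.996). Both separated the genotypes in cortex. *Clgn*, a homolog of calnexin, lay lower in both tissues. It was at 17.2, 16.8 and 19.5 CPM in WT and 15.3, 12.2 and 12.4 in *Snx14*-KO cerebella, and at 16.8, 17.8 and 18.3 against 13.8, 13.6 and 12.7 in cortex. The groups did not overlap in either tissue, and the log2 fold changes were -0.41 and -0.39 (edgeR quasi-likelihood unadjusted p = 0.0117 and 0.00366, adjusted p = 0.410 and 0.990).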

How the data were processed

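Total RNA was isolated from bulk cerebellum and cortex, and strand-specific libraries of its mRNA were sequenced. The authors aligned reads with STAR 2.7.3a to GRCm38 (mm10) and deposited, per library, the count of read pairs per gene from featureCounts (Subread 2.0.1). Pairs in overlapping genes were counted for each, strand was ignored and pairs with several alignments were left out, so values of *Ddit3* and *Hsp90b1* share pairs with neighboring gene models. Entries that name no gene took 0.0506% to 0.0632% of counts and were left out of library sizes, and 97 spike-in entries held 0 counts.

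Genes were filtered and tested in R 4.3.3 with edgeR 4.0.16 (filterByExpr, TMM, quasi-likelihood test, Benjamini-Hochberg adjustment) on the libraries of each comparison. Calls required adjusted p under 0.05 with a log2 fold change beyond 0.50 in either direction. The standard errors given are the absolute log2 fold change divided by the square root of the F statistic of the quasi-likelihood test. DESeq2 1.42.0 was an alternative, with other scalings, no count filter, a replicate block, a fit over the 12 libraries and each library left out. Scripts were tested on simulated data. The 36 genes and all gene lists were chosen with earlier results of these data known. Of the 36, 35 are given with their fold changes, and *Trib3*, not tested within a tissue, with its CPM. Values per library were to be given for those with an unadjusted p under 0.05, for the 5 called with the largest fold change between WT tissues, and for *Hspa5*, *Xbp1*, *Atf4*, *Ddit3* and *Herpud1*. Of the further pathway genes, those called by either tool and the 3 with the smallest p per tissue are named. Values per library of *Hsp90b1*, *Calr*, *P4hb*, *Trib3* and *Dnajc3* were added after they were seen.

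Cerebellum and cortex with the same number and genotype come from the same mouse, per the labels. The correlations of their deviations from the group means were 0.107, 0.141 and 0.0745 for WT mice and 0.321, 0.0172 and 0.0907 for *Snx14*-KO mice. By these correlations, 3 of 3 WT cerebella but only 1 of 3 *Snx14*-KO cerebella matched the cortex of their own number best, with *Snx14*-KO mouse 2 closest to number 3 and mouse 3 to number 2, so statements on both tissues of 1 mouse rest on the labels. The 3 libraries of a group come from separate mice, whose sex is not given per library in the sources used here.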

Additional observations from a re-analysis of the deposited data

How the results depend on the processing

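In both tissues and in the difference between them, 0 of the 36 genes were called under every alternative (14 in cerebellum, 14 in cortex and 19 for the difference). Each count includes the main calls limited to genes with under 10% of their exon bases shared, which is no new fit and could only give 0. Between tissues, leaving out 1 library gave 5 to 7 calls in WT mice and 3 to 6 in *Snx14*-KO mice, where 6 came without the cerebellum of mouse 1 or of mouse 3. Scaling by total counts alone gave 8 in *Snx14*-KO mice; it also moved the median of all genes to 0.148 in WT and 0.157 in *Snx14*-KO mice. For the *Snx14*-KO effect within a tissue, WT and *Snx14*-KO mice share only a number. Samples of the same number had correlations of 0.0744, 0.0282 and -0.0252 in cerebellum and 0.0941, -0.0708 and 0.0737 in cortex, and the replicate block left 0 called in both. Between tissues the block gave 6 calls in WT and 3 in *Snx14*-KO mice, and its value for *Asns* in the difference between tissues was -0.011, opposite in sign to the 0.013 without it.

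Directions near 0 turned. *Syvn1* in cerebellum was -0.0044 with DESeq2, -0.0042 with DESeq2's size factors in edgeR, -0.00026 without a count filter, -0.0081 in a fit over the 12 libraries and -0.0055 with DESeq2 on all genes with a count, which was chosen after seeing the data. With total counts alone, cortical values were 0.0035 for *Pdia4*, 0.00098 for *Dnajb9*, 0.0017 for *Dnajc3*, 0.0058 for *Hyou1* and 0.0073 for *Sec61b*.

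Leaving out 1 library at a time turned the sign of 12 of 35 genes in cerebellum, with ranges of -0.41 to 0.016 for *Hspa5*, -0.15 to 0.028 for *Canx*, -0.21 to 0.12 for *Pdia3*, -0.26 to 0.12 for *Pdia4*, -0.19 to 0.096 for *Dnajc3*, -0.020 to 0.29 for *Atf4*, -0.0077 to 0.077 for *Ddit3*, -0.12 to 0.83 for *Chac1*, -0.049 to 0.36 for *Asns*, -0.14 to 0.28 for *Ddit4*, -0.074 to 0.065 for *Syvn1* and -0.11 to 0.011 for *Derl2*. It turned 27 of 35 in cortex. Among chaperones and folding enzymes the ranges there were -0.27 to 0.072 for *Hspa5*, -0.17 to 0.074 for *Calr*, -0.048 to 0.019 for *Canx*, -0.045 to 0.13 for *Pdia3*, -0.15 to 0.086 for *Pdia4*, -0.29 to 0.0080 for *Pdia6*, -0.098 to 0.019 for *P4hb*, -0.063 to 0.059 for *Dnajb9*, -0.13 to 0.063 for *Dnajb11*, -0.097 to 0.063 for *Dnajc3*, -0.083 to 0.11 for *Hyou1*, -0.40 to 0.11 for *Sdf2l1*, -0.12 to 0.12 for *Creld2* and -0.20 to 0.062 for *Manf*. Among the rest they were -0.12 to 0.0034 for *Ern1*, -0.028 to 0.087 for *Eif2ak3*, -0.055 to 0.20 for *Atf4*, -0.15 to 0.010 for *Ddit3*, -0.022 to 0.18 for *Sesn2*, -0.062 to 0.34 for *Ddit4*, -0.096 to 0.063 for *Herpud1*, -0.025 to 0.13 for *Sel1l*, -0.031 to 0.15 for *Syvn1*, -0.042 to 0.0025 for *Derl1*, -0.12 to 0.068 for *Derl2*, -0.13 to 0.14 for *Edem1* and -0.096 to 0.079 for *Sec61b*. In the difference between tissues it turned 22 of 36, and the ranges were -0.32 to 0.13 for *Hspa5*, -0.26 to 0.13 for *Hsp90b1*, -0.37 to 0.0033 for *Calr*, -0.14 to 0.028 for *Canx*, -0.24 to 0.089 for *Pdia3*, -0.25 to 0.11 for *Pdia4*, -0.27 to 0.087 for *Pdia6*, -0.18 to 0.093 for *Dnajc3*, -0.36 to 0.17 for *Sdf2l1*, -0.21 to 0.021 for *Xbp1*, -0.16 to 0.020 for *Ern1*, -0.12 to 0.11 for *Atf6*, -0.13 to 0.18 for *Atf4*, -0.24 to 1.37 for *Trib3*, -0.48 to 0.46 for *Chac1*, -0.24 to 0.16 for *Asns*, -0.31 to 0.17 for *Ddit4*, -0.24 to 0.037 for *Ppp1r15a*, -0.16 to 0.021 for *Syvn1*, -0.12 to 0.085 for *Derl2*, -0.14 to 0.0073 for *Selenos* and -0.16 to 0.015 for *Sec61b*. The cause of these changes was not tested beyond the library left out. Depth limits *Atf3* and *Trib3*, which had as few as 5 and 1 counts in a library.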

Other observations

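Lists of other cells and stress programs gave the following values between *Snx14*-KO and WT tissue. In cerebellum, 10 of 10 granule cell markers, 10 of 10 oligodendrocyte markers and 10 of 10 Purkinje cell markers had a log2 fold change below 0, with medians of -0.27, -0.16 and -0.14. Of these, edgeR called 0 and DESeq2 called 1 granule cell marker. The 14 microglial markers had a median of 0.81, the 15 meningeal markers 1.15 and the 12 astrocyte markers 0.27, with 0 called by edgeR, while DESeq2 called 11 of the 15 meningeal markers and 0 of the other two lists. In cortex, 10 of 10 oligodendrocyte markers were below 0 with a median of -0.30, 10 of 10 endothelial markers were above 0 with a median of 0.23, and 15 of 15 meningeal markers were above 0 with a median of 0.66, with 0 of the meningeal markers called by either tool. The cortex of *Snx14*-KO mouse 2 stood apart in both the meningeal list, at 534 CPM against 160 to 223 in the other 5 cortices, and the oligodendrocyte list, at 5755 CPM against 7484 to 8535. The 16 immediate early genes, which neuronal activity induces, had 0 of 16 above 0 in cortex, with a median of -0.34, and 9 of 15 above 0 in cerebellum. Neither tool called any of them in cortex. Their cortical sums overlapped, at 2129, 972 and 1677 CPM in WT and 678, 1771 and 1338 CPM in *Snx14*-KO mice. Genes induced by glucocorticoids lay above 0 in 13 of 14 cases in cerebellum and 11 of 14 in cortex, and genes induced by hypoxia in 9 of 12 in each, though in 6 of 12 in cerebellum with DESeq2.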
